A study of Mus musculus with 7 samples.

Results

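The SLC25 carriers are the proteins that move metabolites across the inner mitochondrial membrane, and their messenger RNAs were compared between livers of newborn mice with and without glycerol kinase, the enzyme that turns glycerol into glycerol 3-phosphate. Carriers were taken as every probe set whose single gene symbol on the platform annotation was Slc25a followed by a number, without Slc25a13, Slc25a15, Slc25a17, Slc25a20 and Slc25a37. This gave 39 genes with 85 probe sets, of 18193 genes with a singly named probe set. There were 4 glycerol kinase knockout livers and 3 wild type littermate livers, all from male C57BL/6J pups on day of life 1. Each liver was extracted and hybridised on its own to 1 Affymetrix Mouse Genome 430 2.0 array. The submitters chose this age because knockout pups show no outward signs yet. The targeted transcript itself was not analysed here and gives no check on the labels.

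Most carriers are small proteins of repeated membrane helices, and many of them exchange one solute for another. The ADP/ATP and phosphate carriers serve oxidative phosphorylation. The carboxylate and aspartate/glutamate carriers connect mitochondrial and cytosolic metabolism for gluconeogenesis, lipogenesis, urea synthesis and the transfer of reducing equivalents, and others bring cofactors, nucleotides, amino acids and iron into the matrix. Carriers were grouped here by their known substrate.

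Values are deposited intensities on a linear scale, scaled to 1 target on every array, so a change in the total amount of messenger RNA would not be seen. Pearson's r between pairs of arrays was 0.930 to 0.985 over the probe sets that were tested, and no array held the values of another. Hepatocyte transcripts were bright in every liver, and the summed intensity of 10 named marker genes was 249157 to 317772 in knockout livers, against 259271 to 285525 in wild type livers. Red cell precursors share the newborn liver. The summed intensity of 8 erythroid markers was 52930 to 58016 in knockout livers and 65230 to 74010 in wild type livers, and of 6 proliferation markers 17887 to 21511 in knockout and 25360 to 26575 in wild type. The groups did not overlap for either sum. All 7 tested erythroid markers had a lower mean in knockout, and Slc4a1 and Rhag passed the test, while the dim probe set of Hba-a1 was not tested. Endothelial markers summed to 7198 to 12649 in knockout and 12709 to 15213 in wild type livers, also without overlap. That sum was carried by the bright Lyve1 (-0.71) and Stab2 (-0.51), while Pecam1, Kdr and Cdh5 overlapped and Tek was higher without overlap (log2 fold change 0.61), and none of the 6 passed. The sums of myeloid, lymphoid, stellate, cholangiocyte, muscle and brown fat markers overlapped between groups. In whole tissue, fewer cells of a type and less RNA per cell cannot be told apart. The part of these cells in the carrier values was not tested.

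Of the 85 carrier probe sets, 64 lay above the median brightness of the array and were tested, which covered 32 genes. The other 21 probe sets had mean intensities of 5.73 to 102.3. No probe set of Slc25a2, Slc25a14, Slc25a18, Slc25a31, Slc25a35, Slc25a41 or Slc25a54 was tested, among them the testis ADP/ATP carrier Slc25a31. Over all 22518 tested probe sets, 955 passed (limma, Benjamini-Hochberg adjusted p under 0.05), which is 4.24%, and 55.4% of them were higher in knockout. With arrays set to equal medians 71.3% of 759 were higher.

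Transcripts of 6 carriers passed the test in at least 1 probe set. Slc25a23, Slc25a42, Slc25a45 and Slc25a10 were higher in knockout liver, and Slc25a29 and Slc25a32 were lower. They amount to 7 of the 64 tested carrier probe sets, or 10.9%, against 4.24% of all probe sets. Of these, 5 were higher (2.35% of all probe sets) and 2 lower (1.89% of all). With 1 probe set per gene, the brightest, 4 of 32 carriers passed upward and 0 downward, or 12.5%, against 4.77% of 11159 genes. At an unadjusted limma p under 0.05 there were 6 higher and 4 lower of the 32 carriers, against 12.3% higher and 10.2% lower of all genes. The family as a whole had no common direction. By brightest probe set 16 carriers had a positive and 16 a negative log2 fold change, where 49.9% of all genes were positive, with a median of 0.0021 against -0.0012 over all genes. With equal medians the split was 19 positive and 13 negative. The median size of the change, without its sign, was 0.29 for carriers and 0.22 for all genes.

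**Figure D1:**
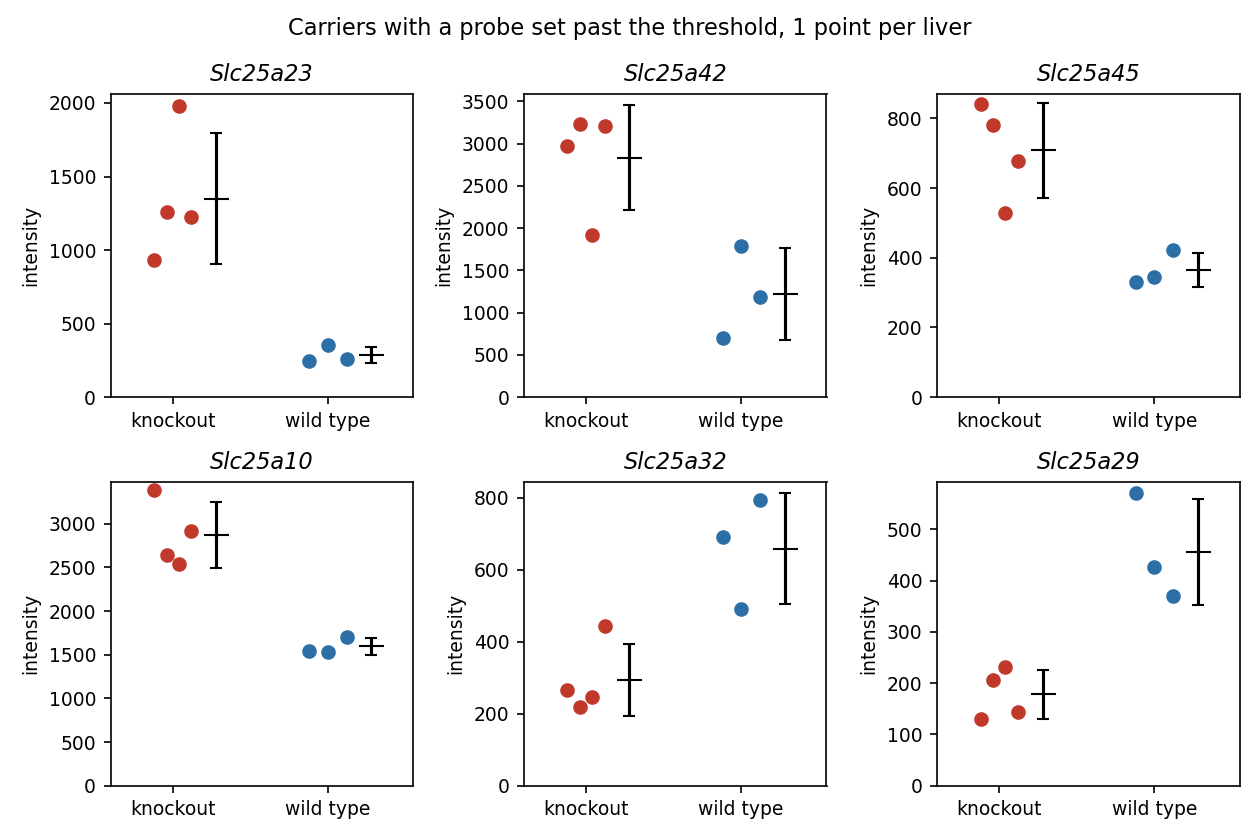
Intensity (linear scale from 0, arbitrary units) of the 6 carriers with a called probe set, by the called probe set of smallest p, with 1 point per liver (4 knockout, 3 wild type) and bars for mean ± SD. Every knockout liver lies above every wild type liver for Slc25a23, Slc25a42, Slc25a45 and Slc25a10, and below for Slc25a32 and Slc25a29.

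Promoters of 4 of the 6 called carriers are printed because these genes carry the result and their promoters each hold at least 1 of the motifs searched. That of Slc25a10 held none of them and is given by position, and no promoter of Slc25a32 was available here. The sequences are from RefSeq on GRCm38.p6 and hold the 250 bases before the annotated start, 5′ to 3′ on the gene's strand. That of Slc25a23 lies at chr17:57059864-57060113 on the minus strand, for the first of 2 starts in the table, and that of Slc25a42 at chr8:70212282-70212531 on the minus strand. Slc25a45 lies at chr19:5877572-5877821 on the plus strand and Slc25a29 at chr12:108835877-108836126 on the minus strand. Capitals mark exact matches, on either strand, to AGGTCA (a nuclear receptor core motif), GGGCGG (a GC box), CCAAT (bound by the factor NF-Y), TATAAA (the letters of a TATA box) and CACGTG (an E-box).
Slc25a23: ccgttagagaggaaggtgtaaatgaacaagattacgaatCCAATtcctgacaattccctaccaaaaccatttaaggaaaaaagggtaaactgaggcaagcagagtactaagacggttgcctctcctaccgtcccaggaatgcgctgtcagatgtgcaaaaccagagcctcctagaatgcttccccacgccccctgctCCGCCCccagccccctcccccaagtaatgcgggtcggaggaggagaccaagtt
Slc25a42: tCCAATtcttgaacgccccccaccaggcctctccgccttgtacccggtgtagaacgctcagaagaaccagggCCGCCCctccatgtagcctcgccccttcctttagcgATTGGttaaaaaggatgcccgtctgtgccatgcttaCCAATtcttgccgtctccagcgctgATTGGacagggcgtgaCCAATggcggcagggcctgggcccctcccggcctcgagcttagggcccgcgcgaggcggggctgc
Slc25a45: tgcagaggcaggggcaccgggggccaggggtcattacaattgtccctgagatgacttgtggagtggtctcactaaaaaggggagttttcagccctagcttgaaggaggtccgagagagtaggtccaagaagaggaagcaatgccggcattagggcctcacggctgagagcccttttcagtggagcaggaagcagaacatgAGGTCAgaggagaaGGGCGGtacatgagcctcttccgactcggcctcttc
Slc25a29: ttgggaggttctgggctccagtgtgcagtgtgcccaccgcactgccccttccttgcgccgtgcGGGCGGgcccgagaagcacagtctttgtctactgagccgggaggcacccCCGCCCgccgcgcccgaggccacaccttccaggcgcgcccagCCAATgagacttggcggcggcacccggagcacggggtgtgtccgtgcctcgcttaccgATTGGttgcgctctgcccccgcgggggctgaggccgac
The window of Slc25a42 held CCAAT 5 times in all over both strands, and that of Slc25a45 held AGGTCA at -50 from the start and GGGCGG at -36. The matching window of Slc25a10, at chr11:120491587-120491836 on the plus strand, held none of these letters. Of the 39 carriers, 30 had a promoter in the table, and 21 of these, or 70.0%, held GGGCGG, against 42.7% of 17491 protein-coding genes. CCAAT was found in 13 of the 30 (43.3%, against 36.3%) and AGGTCA in 4 (13.3%, against 12.6%). TATAAA was found in 1 (3.33%, against 12.4%) and CACGTG in 5 (16.7%, against 6.64%). These are matches of letters, and no binding was measured.

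Among carriers of carboxylates, all 3 measured genes had higher means in knockout livers, and Slc25a10 passed the test. Slc25a10, which exchanges malate or succinate for phosphate, had intensities of 3384, 2643, 2538 and 2918 in knockout livers, against 1542, 1536 and 1706 in wild type livers. Every knockout liver lay above every wild type liver. The mean was 2871 ± 378 in knockout and 1595 ± 96.3 in wild type (SD, n = 4 and 3), a log2 fold change of 0.83 ± 0.14 (SE, limma adjusted p = 0.0136). A second, dimmer probe set of Slc25a10 read 1696, 1231, 1083 and 1339 in knockout, against 792.7, 758.5 and 835.8 in wild type, and also passed at 0.72 ± 0.17 (limma adjusted p = 0.0447). Both probe sets of the dicarboxylate carrier thus separated the groups. The brighter one did not pass without wild type 2 or 3 (adjusted p up to 0.0629), and among runs without 1 array the dimmer one passed only without knockout 3 (adjusted p up to 0.152).

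Slc25a11, the oxoglutarate/malate carrier of the malate-aspartate shuttle, had intensities of 6756, 4388, 3678 and 4880 in knockout livers, against 2325, 3430 and 2765 in wild type livers. The groups did not overlap, but the log2 fold change of 0.77 ± 0.21 did not pass (limma adjusted p = 0.0656). In runs without 1 array it lay between 0.61, without knockout 1, and 0.92, without wild type 2, and passed only without knockout 3, at 0.90 (adjusted p = 0.0364, and up to 0.206 in the other runs). Slc25a1, which exports citrate for fatty acid synthesis, was at 0.22 ± 0.12 (limma adjusted p = 0.334). The median log2 fold change of the 3 carboxylate carriers was 0.77.

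Enzymes that work with these carriers were looked at beside them, from a list of shuttle and citrate export enzymes. Of 16 tested, 4 rose and 0 fell by brightest probe set, against 3.1% and 1.67% of all genes, and 13 had positive log2 fold changes, with a median of 0.37. At an unadjusted limma p under 0.05, 9 were higher and 2 lower, against 12.3% and 10.2% of all genes. The list was chosen with earlier results of these data known, so these shares describe it and are no test of it. A link between these enzymes and the carriers was not tested. Me1, the cytosolic malic enzyme, had 988.9, 642.1, 1254 and 934.4 in knockout livers, against 314.5, 266.7 and 301.5 in wild type livers, and rose by 1.61 ± 0.21 on the log2 scale. Mdh1, the cytosolic malate dehydrogenase, rose by 0.66 ± 0.12, Got2, the mitochondrial aspartate aminotransferase, by 0.49 ± 0.11 and Idh1, the cytosolic isocitrate dehydrogenase, by 1.34 ± 0.32. The limma adjusted p was 0.0060 for Me1, 0.0203 for Mdh1, 0.0410 for Got2 and 0.0490 for Idh1, with Got2 and Idh1 close to the threshold. Runs without 1 array are not given for these enzymes. The groups did not overlap for any of these 4 enzymes. Got1, the cytosolic partner of Got2, was at -0.56 ± 0.15 and did not pass (limma adjusted p = 0.0699).

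**Figure D2:**
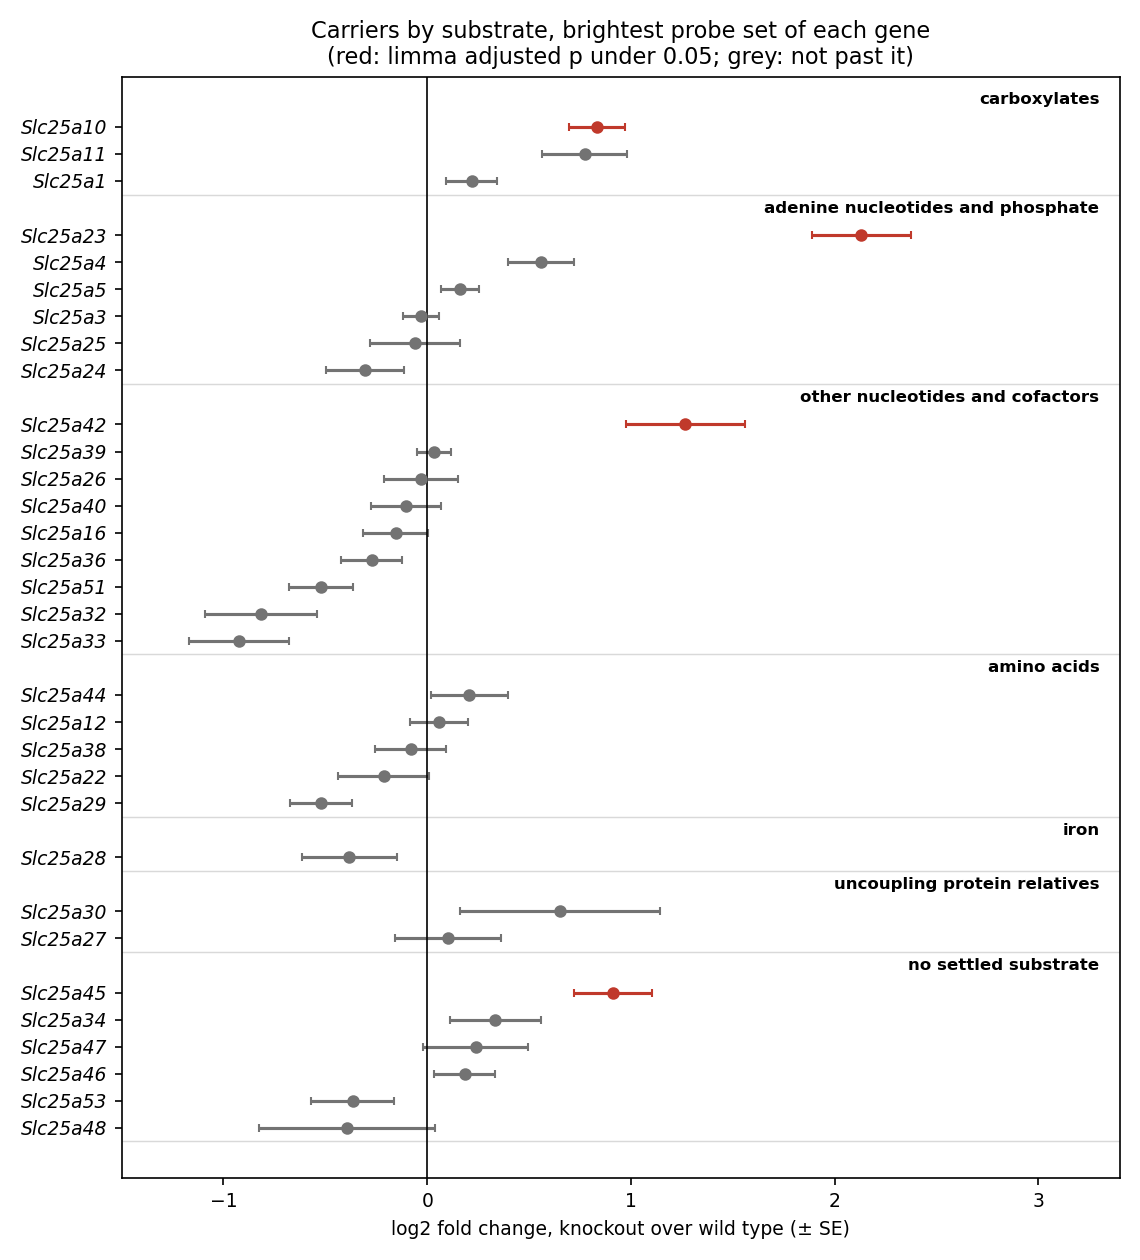
Log2 fold change (knockout over wild type, log2(intensity + 16) scale) with SE for the brightest probe set of each of the 32 tested carriers, grouped by substrate. Slc25a10, Slc25a23, Slc25a42 and Slc25a45 are red (limma adjusted p under 0.05), and the other points lie on both sides of 0.

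Among carriers of adenine nucleotides and phosphate, Slc25a23 was higher in knockout livers, and the other 5 tested members did not pass. Slc25a23, a calcium-regulated carrier that exchanges ATP-magnesium for phosphate, had intensities of 929.4, 1261, 1977 and 1224 in knockout livers, against 247.6, 352.0 and 262.2 in wild type livers. The lowest knockout value lay above the highest wild type value, with a wide gap. The mean was 1348 ± 445 in knockout and 287 ± 56.5 in wild type, a ratio of 4.69 and a log2 fold change of 2.13 ± 0.24 (limma adjusted p = 0.0029), the largest change among tested carriers. It passed whichever array was left out, with log2 fold changes of 1.93 to 2.29. Its relatives of the same substrate were at -0.30 ± 0.19 for Slc25a24 and -0.06 ± 0.22 for Slc25a25 by brightest probe set, and neither passed. Slc25a25 changed sign in 3 of the 7 runs without 1 array, from -0.36 to 0.13, and was at 0.00096 with equal medians. A dim probe set of Slc25a25 was at -0.83 ± 0.32 (limma adjusted p = 0.170).

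The ADP/ATP carriers and the phosphate carrier supply ATP synthase with its substrates and export its product, and none of them passed. Slc25a4, ADP/ATP carrier 1, read 23487, 13348, 17687 and 19002 in knockout livers by its brightest probe set, against 12316, 12287 and 12049 in wild type livers. Knockout livers were all higher and spread more widely, and the log2 fold change of 0.56 ± 0.16 did not pass (limma adjusted p = 0.0801). Of its other tested probe sets, 1 was at 0.59 (adjusted p = 0.0686) with no overlap, and the other at 0.13 with overlap. Slc25a5, ADP/ATP carrier 2, was at 0.16 ± 0.09 by its brightest probe set, and its 8 tested probe sets ran from -0.09 to 0.36, with none past the threshold. The brightest probe sets of Slc25a4 and Slc25a5 are of a type that may bind related transcripts, so signals of these similar genes may not be separate. Slc25a3, the phosphate carrier, had 22665, 20842, 19376 and 21053 in knockout livers, against 21066, 22270 and 20877 in wild type livers. These values overlap, and its log2 fold change was -0.03 ± 0.09, which turned positive at 0.03 with equal medians and at 0.0046 with quantile normalization.

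Among carriers of other nucleotides and cofactors, 7 of 9 tested genes had lower means in knockout by brightest probe set. Slc25a42 went in the opposite direction, and Slc25a39 was at 0.03 ± 0.08. Among the 7, Slc25a26 (-0.03 ± 0.18), Slc25a40 (-0.11 ± 0.17) and Slc25a16 (-0.15 ± 0.16) lay within their SE of 0. Slc25a26 turned positive with equal medians. Slc25a42, which brings coenzyme A into the matrix, had intensities of 2974, 3237, 1916 and 3206 in knockout livers, against 702.5, 1785 and 1186 in wild type livers. Knockout 3 was the lowest of its group and still above wild type 2, the highest of the controls. The log2 fold change was 1.27 ± 0.29 (limma adjusted p = 0.0426), and it ranged from 0.92 without wild type 1 to 1.59 without wild type 2. The call was kept without knockout 3 or wild type 2 and lost without any of the other 5 arrays (adjusted p up to 0.145). A second probe set, too dim to be tested, read 112.6, 104.4, 91.5 and 64.3 in knockout livers, against 35.1, 60.4 and 32.4 in wild type livers, again without overlap.

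Slc25a32, the carrier of folate and FAD, had 3 tested probe sets, all lower on average in knockout. The one that passed read 266.4, 220.0, 247.6 and 443.0 in knockout livers, against 692.5, 491.4 and 794.2 in wild type livers. The highest knockout value, that of knockout 4, came close to the lowest wild type value without reaching it. Its log2 fold change was -1.15 ± 0.25 (limma adjusted p = 0.0380), and the other 2 probe sets, at -0.82 and -1.03, did not pass (limma adjusted p = 0.123 and 0.0786). When 1 array was left out, the call held without knockout 4 and was lost without any other array (adjusted p up to 0.169). It was also lost with equal medians and with an offset of 1, where the arrays were set to equal medians as well. The same held with eBayes without a trend and without the filter on dim probe sets. The probe set that passed is of a type that may bind related transcripts.

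Slc25a33, a carrier of pyrimidine nucleotides, read 5662, 3516, 3271 and 6098 in knockout livers, against 10140, 6418 and 9390 in wild type livers. Every knockout liver was lower than every wild type liver, yet the log2 fold change of -0.92 ± 0.24 did not pass (limma adjusted p = 0.0634). Slc25a51, the NAD carrier, had 3 tested probe sets at -0.97, -0.52 and -0.40, each without overlap between groups and none past the threshold (limma adjusted p from 0.0628 to 0.172). Slc25a36, the other pyrimidine nucleotide carrier, was at -0.27 ± 0.15, also without overlap. Slc25a39, linked to mitochondrial glutathione, had 24967, 24196, 23268 and 23866 in knockout livers by its brightest probe set, against 24054, 22022 and 24531 in wild type livers. The groups overlapped in this probe set, which is of a type that may bind related transcripts. The 4 tested probe sets of Slc25a39 ran from -0.25 to 0.11. The one at -0.25 lay wholly lower in knockout livers and did not pass (limma adjusted p = 0.233). Slc25a40, the paralog of Slc25a39, was at -0.11, the S-adenosylmethionine carrier Slc25a26 at -0.03 (0.03 with equal medians) and Slc25a16 at -0.15.

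Among carriers of amino acids, Slc25a29 was lower in knockout in all 5 of its tested probe sets, 1 of which passed. Slc25a29 carries basic amino acids such as arginine and lysine. The probe set that passed read 130.5, 207.0, 230.5 and 144.5 in knockout livers, against 570.3, 426.4 and 370.8 in wild type livers. The groups were well apart, with a log2 fold change of -1.29 ± 0.24 (limma adjusted p = 0.0192). The other 4 probe sets ran from -0.65 to -0.50 and did not pass (limma adjusted p from 0.0783 to 0.264), and 2 of them separated the groups. The call was lost without knockout 4 or any wild type array (adjusted p up to 0.0725). The 5 probe sets thus shared a direction but not a size.

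The tested probe sets of other amino acid carriers overlapped between groups. Slc25a22, a glutamate carrier, had 3861, 3401, 5437 and 2901 in knockout livers, against 3308, 5059 and 5085 in wild type livers, and its log2 fold change of -0.21 ± 0.22 ran from -0.42 without wild type 1 to -0.08 without knockout 4. Slc25a12, an aspartate/glutamate carrier known mainly from brain and muscle, was at 0.06 ± 0.14 by its brightest probe set and at -0.68 ± 0.33 by a dim one. Another probe set of Slc25a12, too dim to be tested, read 58.7, 78.9, 46.5 and 73.5 in knockout livers, against 88.4, 167.6 and 86.1 in wild type livers, without overlap. Slc25a44, which carries branched-chain amino acids, had probe sets from -0.06 to 0.21. Slc25a38, a carrier needed for heme synthesis in red cell precursors, was at -0.08 ± 0.18. Slc25a28, the iron carrier mitoferrin 2, read 1530, 913.6, 730.1 and 931.3 in knockout livers, against 1539, 1171 and 1199 in wild type livers, and its log2 fold change of -0.38 ± 0.23 did not pass and ran from -0.59 without knockout 1 to -0.24 without knockout 3. Beside these, the erythroid marker sums given above were lower in knockout, with Slc4a1 at -0.39 and Rhag at -0.49.

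Of 6 tested carriers without a settled substrate, Slc25a45 passed. It read 842.5, 782.1, 529.1 and 678.8 in knockout livers, against 330.0, 345.4 and 421.4 in wild type livers. The groups did not overlap, and the log2 fold change was 0.91 ± 0.19 (limma adjusted p = 0.0313). The call held without knockout 1 or 3 and was lost without any of the other 5 arrays (adjusted p up to 0.111). Slc25a47, a carrier found mainly in liver, had 10587, 20065, 14574 and 23639 in knockout livers, against 10490, 16212 and 15962 in wild type livers. Its values overlapped widely, at 0.24 ± 0.26, and this log2 fold change ran from 0.03 without wild type 1 to 0.45 without knockout 1. The remaining 4, among them the outer membrane protein Slc25a46, ran from -0.39 to 0.33 by brightest probe set, and none passed.

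Slc25a30, a relative of the uncoupling proteins, varied widely among knockout livers. Its brightest probe set read 2917, 2581, 857.4 and 5701 in knockout livers, against 1570, 1956 and 1247 in wild type livers. Knockout 3 lay below every wild type liver, and the other 3 knockout livers above every one. All 4 tested probe sets were higher on average, from 0.58 to 0.90, and none passed. The brightest was at 1.15 without knockout 3 (limma adjusted p = 0.0576) and at 0.25 without knockout 4 (limma adjusted p = 0.787), against 0.65 in all arrays. Slc25a27 was at 0.10 ± 0.26, and the probe set of Slc25a14 was too dim to be tested.

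**Figure D3:**
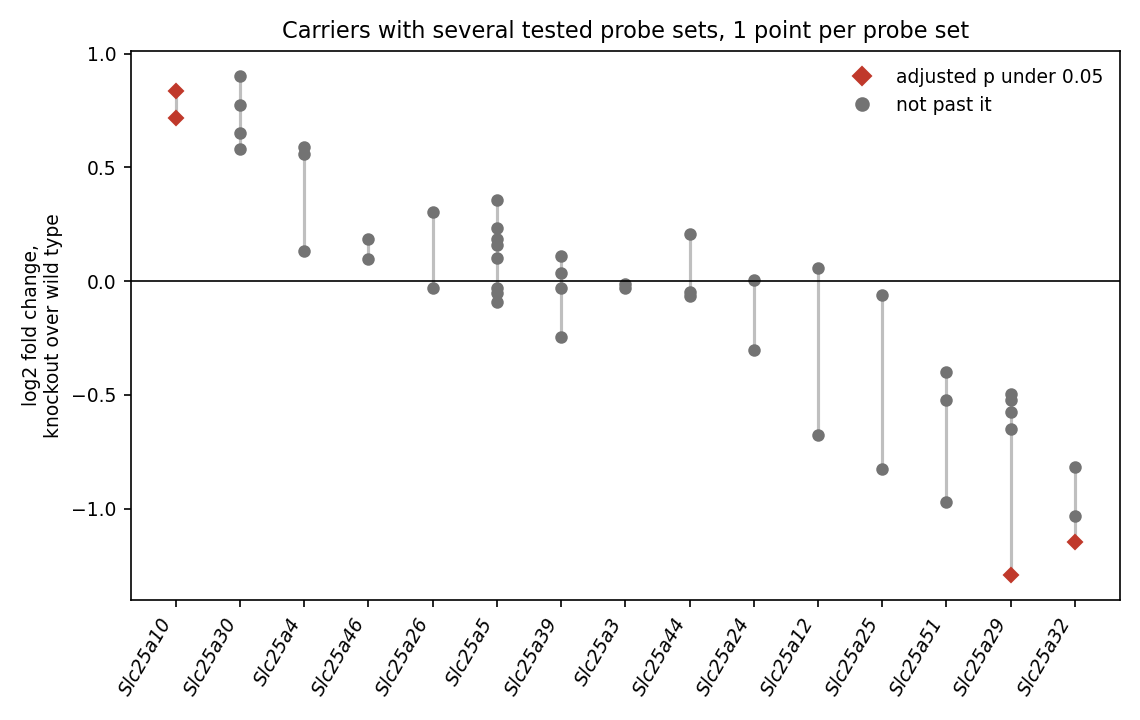
Log2 fold change (knockout over wild type) of every tested probe set, 1 point each, for the 15 carriers with several tested probe sets. Slc25a10 (2 probe sets), Slc25a29 (5) and Slc25a32 (3) each keep 1 direction, whereas 6 carriers, Slc25a5 among them, have probe sets on both sides of 0.

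Of the 15 carriers with several tested probe sets, 9 had a single direction in all of them. The 6 with both signs were Slc25a5, Slc25a12, Slc25a24, Slc25a26, Slc25a39 and Slc25a44. Over all 64 tested carrier probe sets, 11 lay wholly higher in knockout livers and 10 wholly lower, against 9.4% and 11.8% of all tested probe sets, or 21.1% in either direction. Several probe sets of the same gene count separately here. By brightest probe set, 7 of the 32 carriers lay wholly higher and 4 wholly lower.

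Carriers are brought into mitochondria by the TOM and TIM22 machinery and its small chaperones. Of 14 tested genes of this import path, 0 passed in limma by brightest probe set (1 higher and 1 lower at an unadjusted p under 0.05, against the shares of all genes given above) and 11 had positive log2 fold changes, with a median of 0.22. Tomm20, a receptor of the outer membrane, was at -0.33 and Timm22, the channel for carriers, at 0.17. Family members under other names and other mitochondrial transporters gave 0 called of 11 tested in limma, against 4.77% of all genes. By unadjusted limma p under 0.05, 2 were higher and 0 lower, against 12.3% and 10.2% of all genes. Their median log2 fold change was 0.19. Mtch1 was at 0.34 and Vdac1, the main pore of the outer membrane, at 0.19, both without overlap between groups and not past the threshold, while Ucp1 was too dim to be tested.

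Of the 5 carriers left out of the set, Slc25a20, the carnitine/acylcarnitine carrier, had a log2 fold change of 1.29 ± 0.23 by its brightest probe set (limma adjusted p = 0.0167). A second probe set of Slc25a20 also passed, at 1.35 (limma adjusted p = 0.0064). Slc25a13 was at 0.39, Slc25a15 at -0.69, Slc25a17 at 0.33 and Slc25a37 at -0.35, and none of these 4 passed. The groups did not overlap for Slc25a13, Slc25a15 and Slc25a37 (limma adjusted p = 0.0520, 0.0689 and 0.0699), and overlapped for Slc25a17. A second probe set of Slc25a15, at -0.93, overlapped and did not pass.

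**Figure D4:**
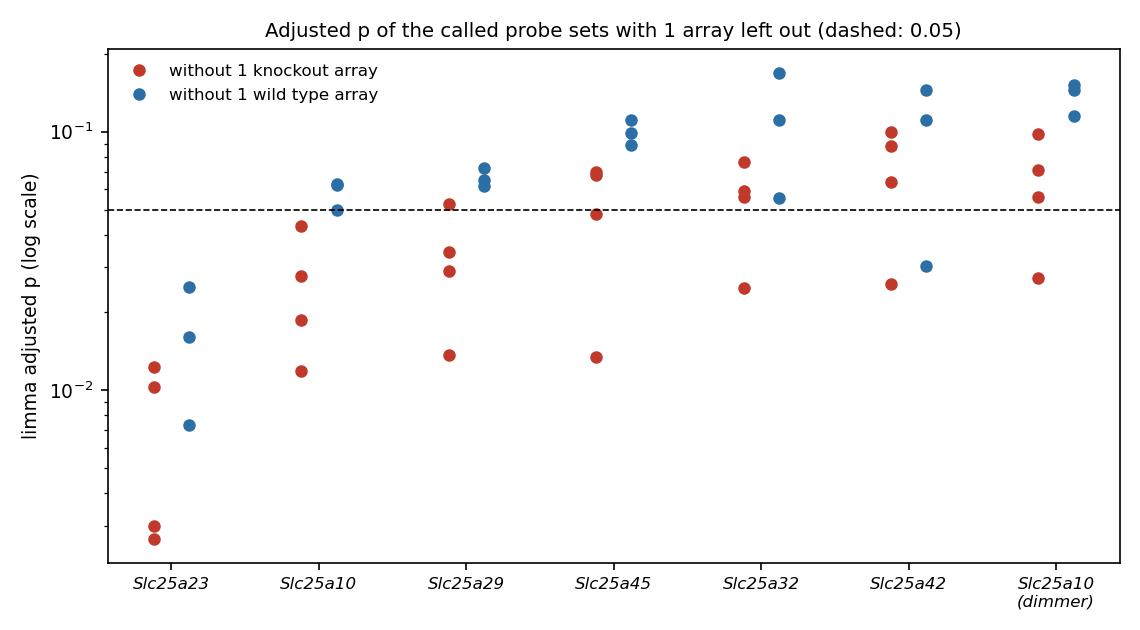
Limma adjusted p (log axis) of the 7 called carrier probe sets when 1 array was left out, with red points for a knockout array and blue points for a wild type array, and 0.05 dashed. All 7 points of Slc25a23 lie under the line, and every other probe set has points above it.

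The number of called carrier probe sets depended on single arrays. It was 5 without knockout 1 or 2, 10 without knockout 3, 3 without knockout 4, 2 without wild type 1 or 2 and 1 without wild type 3, where Slc25a23 remained. The count over all probe sets moved as well, to 1006, 514, 930 and 375 without knockout 1 to 4 and to 341, 288 and 127 without wild type 1 to 3. Fewer arrays also give less power. With eBayes without a trend or without the filter on dim probe sets, Slc25a42 and the dimmer probe set of Slc25a10 lost their calls, and Slc25a45 lost its call without the filter. With replicate numbers as a block, Slc25a29, Slc25a42, Slc25a45 and both probe sets of Slc25a10 lost their calls (limma adjusted p from 0.0649 to 0.114). Slc25a23 and Slc25a32 kept theirs under that setting.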

How the data were processed

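Liver RNA of 4 knockout and 3 wild type mice was measured on 1 array each. Titles of the samples gave the group and number of each liver. The authors deposited intensities on a linear scale, for which the submitters' processing notes name GCOS. How probes were summarised into probe sets, and which litters or array batches the livers belonged to, was not stated in the labels used here. The number of arrays limits the precision.

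A log2(value + 16) transformation was used. The medians of the 7 arrays were then 6.76 to 6.95, less than the 0.2 apart that would have called for rescaling. Of 45101 probe sets 64 controls were left out, and the 22518 above the median of all were compared with limma 3.58.1 (R 4.3.3) by lmFit and a trended eBayes, with Benjamini-Hochberg adjustment over all of them. Log2 fold changes are knockout over wild type with the offset included, so those of dim probe sets come out too small. Errors are SDs for intensities and SEs for log2 fold changes. The fitting step was tested on simulated data with 50 changed probe sets per fold. It recovered 12% of 1.5-fold, 34% of 2-fold, 78% of 4-fold and 78% of 8-fold changes, and 2.88% of its calls were false. A carrier that did not pass is therefore not shown to be unchanged. The simulated noise was independent and normal, and fewer probe sets were changed than were called in the data. Changed probe sets that fell under the brightness filter counted as missed. These shares therefore need not hold for the real arrays.

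Genes were named from platform annotation with a single symbol. Where a gene is given 1 value, it is that of its brightest probe set over all 7 arrays. Per-array values are given for carriers with a called probe set and for the brightest carrier of each substrate group, and those of Slc25a4, Slc25a33 and Me1 were added after they had been seen. The carriers, substrate groups and lists were chosen with earlier results of these data known. Alternatives covered the offset, scaling, filter, variance model, threshold, shared probe sets, replicate numbers as a block and each array left out. With an offset of 1 the array medians were more than 0.2 apart, so that run was also rescaled to equal medians. Plots were drawn with matplotlib 3.10.9.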

Additional observations from a re-analysis of the deposited data

Results flagged for a closer look

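In the brightest probe set of Slc25a29, knockout 4 was far from the other knockout livers, at an intensity of 496.8 against 602.1, 603.9 and 610.9. All 4 lay below the wild type livers, at 945.2, 769.1 and 799.3. It was the only 1 of 64 tested carrier probe sets in which a knockout liver stood apart by Dixon's test. Chance alone flags about 1 in 20 probe sets, a higher share than was seen here.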

How the results depend on the processing

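Slc25a23 passed under all 10 other settings and all 7 runs without 1 array. Of these settings, the looser threshold of an adjusted p under 0.1 used the same fit and could only add calls. Among other settings, the count of called carrier probe sets (7) and of all called probe sets (955) moved by over 1.5 times with eBayes without a trend (4 and 584), without the filter on dim probe sets (3 and 473), at an adjusted p under 0.1 (17 and 2032) and with replicate numbers as a block (3 and 351). Leaving out 1 array gave 1 to 10 called carrier probe sets, 127 to 1006 called probe sets in all, and a median log2 fold change of carriers from -0.02 to 0.07, against 0.0021 in all arrays. The block rests on numbers alone, since same-numbered livers had deviations that correlated at 0.09, -0.06 and 0.06, and knockout 2 correlated better with wild type 1 than with its own number. Knockout 4 has no partner and adds nothing to that fit. Of the 32 carriers by brightest probe set, 8 changed direction in at least 1 run without 1 array, and 3 of these (Slc25a3, Slc25a25 and Slc25a26) under another setting as well. The other 5 were Slc25a12, Slc25a27, Slc25a38, Slc25a39 and Slc25a48, and none of the 8 had passed. Slc25a25 was at 0.00096 and Slc25a26 at 0.031 with equal medians. Slc25a3 was at 0.030 with equal medians, 0.0046 with quantile normalization and 0.039 with an offset of 1, a run also set to equal medians. It ran from -0.068 to 0.0074 when 1 array was left out, with the positive value without knockout 3. Slc25a39 ran from -0.013 to 0.064 when 1 array was left out, with the negative value without wild type 2. The cause of these changes was not tested. Dim probe sets, such as those of the 7 untested carriers, limit what can be said of these genes.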
